A study of Saccharomyces cerevisiae with 6 samples.

Results

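The genes of mitochondrial ribosomal proteins were examined in 3′ end libraries of budding yeast (Saccharomyces cerevisiae). The list held 57 genes with names that begin with MRPL, MRPS, RSM or MRP. It does not hold every such gene. MRP2, MRP10, MRP13, MRP17, MRP20, MRP21, MRP49 and MRP51 stand in a second list, which is treated apart below. Of the 57 genes, 49 were in the table of read counts, with 134 of its 13565 clusters of polyadenylation (pA) sites. The table covered 4014 genes, each with 2 or more clusters. Of the listed genes, 35 belong to the large and 22 to the small ribosomal subunit, and 29 and 20 of these were in the table. The other 8 (MRPL10, MRPL13, MRPL19, MRPL23, MRPL28, MRPL40, MRPS12 and MRPS17) were not analysed here for their reads.

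The samples were 3 libraries of a strain with JHD2 deleted and 3 libraries of wild-type yeast, all grown to mid-log phase. JHD2 encodes a KDM5-type histone demethylase, and the question of the series is whether it acts on the length of 3′ untranslated regions (3′ UTRs). The sources used here do not give the strain background, the medium or the number of deletion clones. The 3′READS assay sequences the end of a transcript next to its poly(A) tail, so that a read marks where an mRNA was cleaved and polyadenylated.

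Mitochondrial ribosomes translate the few mRNAs encoded by mitochondrial DNA, nearly all of which specify subunits of the respiratory chain and ATP synthase. Their RNA is made inside the organelle, while in yeast almost all of their proteins are encoded in the nucleus and imported. Many nuclear mRNAs for these proteins carry in the 3′ UTR a site for Puf3, an RNA-binding protein of the PUF family that promotes their deadenylation and decay in fermenting cells and brings them to the mitochondrial surface. A 3′ end that lies before such a site leaves it out of the mRNA, so the position of the ends decides whether the site is present.

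The libraries held from 233749 to 480847 reads in the table, of which 1235 to 2499 fell on the 49 genes. The genes took 0.468%, 0.452% and 0.520% of reads in deletion replicates 1, 2 and 3, and 0.527%, 0.528% and 0.488% in wild-type replicates 1, 2 and 3. These shares overlap between the strains. JHD2 had 0 clusters in the table, and its reads therefore give no check of the deletion. The labels do not say that replicates came from separate cultures, so the p-values may reflect technical spread among libraries alone. A value followed by ± is a mean with its SD over the n = 3 libraries of a group.

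The Puf3 site was present in nearly all of these genes. The motif TGTANATA, in which N is any base, was searched on the strand of the mRNA in the first 200 nt past the stop codon, in the genome assembly R64 (sacCer3). It was found in 56 of 57 listed genes (98.2%), against 788 of the 5964 other protein-coding genes (13.2%). The listed gene with no match in this window was RSM22, which encodes a methyltransferase-like protein of the small subunit. On the opposite strand of the same windows it was found in 11 of the 57 genes (19.3%) and in 782 of the other genes (13.1%). The form TGTAAATA was present in 31 of the 57 genes (54.4%) and in 225 of the other genes (3.77%). A match is a sequence only, and binding was not measured here.

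Over these windows and up to the farthest retained cluster, the listed genes held 70 motifs. There was 1 motif in 43 genes, 2 in 12 genes and 3 in RSM19, the relative of bacterial S19. The variable base was A in 31 motifs, T in 21, C in 17 and G in 1. A cytosine stood 2 bases before the motif in 45 of 70 sites (64.3%), against 211 of 844 sites in the first 200 nt past the stop codon of other genes (25.0%). These counts describe the genome and involve no library. The sites below come from genes with ends on both sides of a site or inside it, or from the most abundant genes described later. All sites of a shown gene are given, and not every such gene is shown. Capitals mark the motif, each sequence runs 5′ to 3′ on the strand of the mRNA, and coordinates are those of the RefSeq R64 assembly.
MRPL36, first site (YBR122C, chrII:483853-483876, minus strand): aacagcctTGTATATAccgcaaca
MRPL36, second site (chrII:483817-483840, minus strand): tctacataTGTATATAttgacaac
RSM26 (YJR101W, chrX:619114-619137, plus strand): ttatatacTGTAAATAgttttatt
MRP1, first site (YDR347W, chrIV:1170186-1170209, plus strand): gtagtctcTGTAAATAtataaagt
MRP1, second site (chrIV:1170218-1170241, plus strand): tcgtaatgTGTATATAacgtggtc
MRPL50 (YNR022C, chrXIV:669722-669745, minus strand): tacaatctTGTATATAggcaacat
MRPL33, first site (YMR286W, chrXIII:842252-842275, plus strand): cttatataTGTATATAgtattatt
MRPL33, second site (chrXIII:842359-842382, plus strand): tttatgtaTGTATATAtttacaag
MRPS16, first site (YPL013C, chrXVI:528884-528907, minus strand): gtatatgtTGTATATAtgttttac
MRPS16, second site (chrXVI:528843-528866, minus strand): atcagactTGTAAATAatacatct
MRPL1, first site (YDR116C, chrIV:682671-682694, minus strand): tttttaatTGTATATAtatatata
MRPL1, second site (chrIV:682622-682645, minus strand): taaaatcaTGTACATAcaaagtaa
MRPL6 (YHR147C, chrVIII:392538-392561, minus strand): gaatacctTGTAAATAtcctatga
MRPS8 (YMR158W, chrXIII:572764-572787, plus strand): acggaccaTGTAAATAataatatt
MRP7 (YNL005C, chrXIV:621246-621269, minus strand): agaatgccTGTAAATAttactatt
MRPL25 (YGR076C, chrVII:637011-637034, minus strand): tctaatcaTGTAAATAattttgtg

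**Figure D1:**
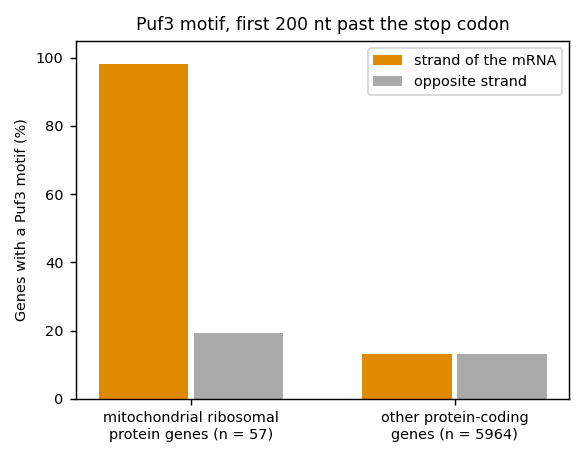
Percent of genes with the Puf3 motif in the first 200 nt past the stop codon, on the strand of the mRNA (orange) and on the opposite strand (grey), for the 57 mitochondrial ribosomal protein genes and the 5964 other protein-coding genes. The orange bars stand at 98.2% and 13.2% and the grey bars at 19.3% and 13.1%.

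The motif was also frequent in other genes of mitochondrial translation. It was found in all 19 further mitochondrial ribosome genes of a second list (such as NAM9, PET123 and IMG1), in 13 of 13 mitochondrial aminoacyl-tRNA synthetase genes, in 6 of 7 mitochondrial translation factors, in 12 of 16 translational activators and in 4 of 6 ribosome assembly genes. It was found in 0 of 5 genes for regulators, namely PUF3 itself and the HAP2, HAP3, HAP4 and HAP5 transcription factor genes of respiratory growth.

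The 3′ ends of the 49 genes lay close together, and the median distance of the most-read end from the stop codon was near that of other genes. In every one of the 49 genes the most-read cluster lay past the stop codon, and so it did in 3774 of the 3964 other genes. Its median position was 116 nt (quartiles 91 and 137 nt, range 48 to 292 nt) in the 49 genes, against 125 nt (quartiles 86 and 184 nt) in the other genes. The most upstream and most downstream clusters of a gene were a median of 75 nt apart, against 225.5 nt in the other genes. There were 25 genes with 2 clusters, 15 with 3, 7 with 4, 1 with 5 (MRPL3) and 1 with 6 (MRPS16). The median was 2 clusters, against 3 in the other genes, of which 1229 had 2. More clusters can widen the distance between the outermost ones, and genes with equal numbers were not compared. Of the clusters 94.8% lay past the stop codon, with 99.2% of reads, against 79.5% of clusters and 97.8% of reads in the other genes. The most-read cluster held a median of 73.6% of the reads of its gene, against 71.4% in the others. These are descriptions of the deposited clusters, and no test was made of the differences.

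The shortest and longest ends belonged to RSM22, with its most-read cluster 48 nt past the stop codon, and MRPL39, a relative of bacterial L33, with its most-read cluster at 292 nt. In MRPL39 the reads were spread over clusters at 148, 195 and 292 nt. The farthest cluster of any of the genes was one of MRPL50, a relative of bacterial L9, at 333 nt. Another 7 clusters lay inside the gene body, each in a different gene, and the most-read of these was 415 nt before the stop codon of MRP7, the relative of bacterial L27. It held 6, 8 and 7 reads in the deletion libraries and 7, 4 and 7 reads in the wild-type libraries.

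The next gene downstream was on the opposite strand, converging with the mitochondrial ribosomal protein gene, in 32 of the 49 cases and on the same strand in 17. How often this is so for other genes was not counted. The gap to the next gene had a median of 278 nt and was 63 nt at its smallest, between RSM7 and YJR112W-A. In all, 14 clusters of 10 genes lay inside an annotated gene of the opposite strand, and in 4 genes the most-read cluster did. These were RSM26 (in VPS25), MRPL4 (in SEC39), MRPS18 (in BXI1) and RSM7. The reads carry strand, so they are counted apart from those of the converging gene. None of the 134 clusters lay in another gene of the same strand, and 0 of the 49 genes had a near-identical stretch elsewhere in the genome.

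**Figure D2:**
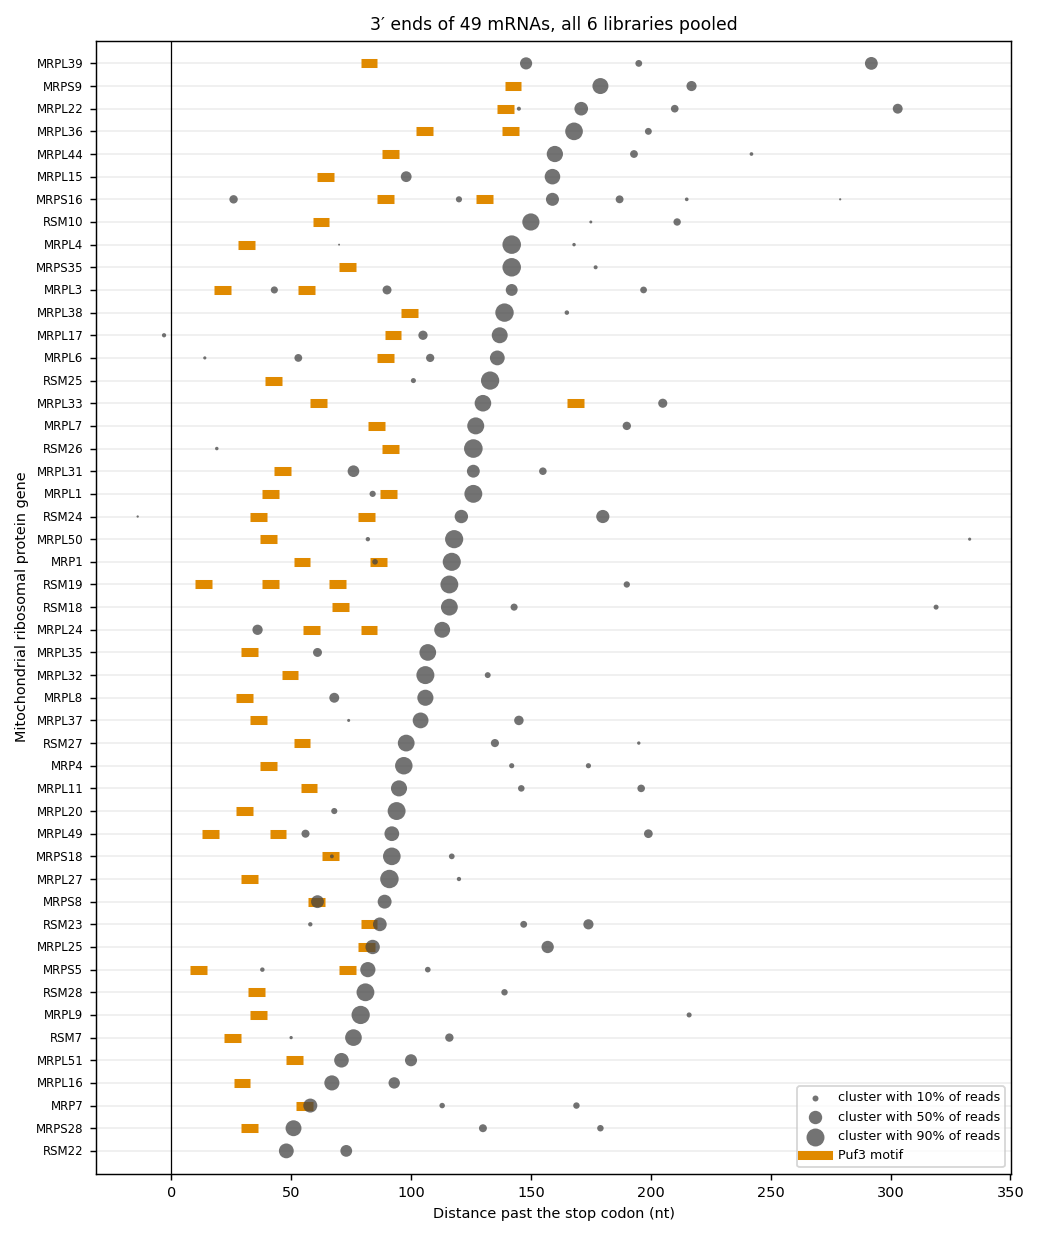
Each row is 1 of the 49 genes and the horizontal axis is the distance past the stop codon in nt. Grey circles are clusters of 3′ ends with an area set by their share of the reads of the gene over all 6 libraries, orange bars are Puf3 motifs, and 5 clusters more than 50 nt inside a gene are not drawn. Most-read clusters run from 48 nt (RSM22) to 292 nt (MRPL39), and in 46 of the 48 genes with a motif they lie past the first motif.

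Nearly all reads of these genes ended past their first Puf3 site, in both strains. In 46 of the 48 genes with a motif the most-read cluster lay past the first motif, at a median of 54 nt after the last base of the motif (quartiles 35.5 and 72 nt). The first motif itself began at a median of 51 nt past the stop codon (range 8 to 139 nt). Of the reads of these 48 genes, 96.9%, 96.0% and 96.1% ended past the first motif in deletion replicates 1, 2 and 3. In wild-type replicates 1, 2 and 3 the shares were 96.0%, 95.5% and 95.4%. The group averages were 96.3% ± 0.482 in deletion libraries and 95.6% ± 0.303 in wild-type libraries, and the lowest deletion library lay just above the highest wild-type library. This sum over chosen genes was not tested.

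Of the other reads of these genes over all libraries, 87 ended in the gene body, 166 between the stop codon and the motif and 170 at a cluster whose position fell inside the motif. The last kind arose in 4 genes. The most-read cluster fell within the motif in MRP7 (58 nt, motif at 52 to 59 nt) and in MRPL25 (84 nt, motif at 78 to 85 nt). A cluster of MRPS8 lay at 61 nt (motif at 57 to 64 nt) and a minor cluster of MRPS18 at 67 nt (motif at 63 to 70 nt). A cluster joins ends within 24 bp under a single position, and a deposited position can be off by 1 nt, since its counting base is not stated. Which of these reads keep the whole motif can therefore not be told. The same limit holds for clusters right next to a motif. An example is the most-read cluster of RSM23 at 87 nt (motif at 79 to 86 nt), counted here as past the motif.

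The hexamer TATATA, which acts as an efficiency element of yeast polyadenylation, was searched on the strand of the mRNA in the 100 nt before the most-read cluster past the stop codon. It was found in 30 of 49 genes (61.2%) and in 1800 of 3940 other genes (45.7%). The variant TGTATATA of the Puf3 motif contains TATATA, and it lay in this window in 15 of the 49 genes, so part of these matches share letters with the Puf3 motif.

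Messenger RNA levels of the genes spanned a wide range in both strains. Levels are given as reads summed over the clusters of a gene per 1e6 reads of tested genes, after TMM scaling (CPM). A read marks an end and not a stretch of the transcript, so a level does not grow with transcript length. Of the 49 genes 41 passed the low-count filter of edgeR, and their levels over the 6 libraries had a median of 82.7 CPM (range 24.6 to 576 CPM), against 107 CPM over all 3366 tested genes. The median was 80.2 CPM for 23 large-subunit genes and 84.0 CPM for 18 small-subunit genes. The other 8 (MRPL8, MRPL11, MRPL15, MRPL24, MRPL25, MRPL27, MRPS28 and RSM22) had means of 4.33 to 9.67 reads per library and were too low to test.

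The most abundant mRNA was that of MRPL36, a large-subunit protein related to bacterial L31. MRPL36 stood at 561, 512 and 635 CPM in the deletion libraries and at 624, 577 and 547 CPM in the wild-type libraries. RSM26 and MRP1, small-subunit proteins related in sequence to superoxide dismutases, came next. RSM26 had 357, 315 and 420 CPM in deletion libraries and 407, 352 and 344 CPM in wild-type libraries. MRP1 had 276, 246 and 267 CPM in deletion libraries and 304, 152 and 286 CPM in wild-type libraries. In each of these 3 genes the groups overlapped, and the low MRP1 value belonged to wild-type replicate 2. MRPL50 had 156, 216 and 242 CPM in deletion libraries and 204, 356 and 192 CPM in wild-type libraries, with its highest value in that same library. MRPL33, a relative of bacterial L30, had 192, 200 and 269 CPM in deletion libraries and 228, 243 and 232 CPM in wild-type libraries. The spread within a strain was as wide as the gap between MRP1, MRPL50 and MRPL33, so their order is not fixed by these libraries.

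The lowest tested levels belonged to MRP4 (a relative of bacterial S2), RSM18 (a relative of bacterial S18) and MRPL3 of the large subunit. MRP4 had 19.2, 21.4 and 35.7 CPM in deletion libraries and 29.9, 30.4 and 10.9 CPM in wild-type libraries. RSM18 had 24.1 ± 4.60 CPM in deletion libraries and 29.7 ± 6.97 CPM in wild-type libraries. MRPL3 had 34.7 ± 10.2 CPM in deletion libraries and 29.2 ± 3.27 CPM in wild-type libraries. Each of these rests on 9 to 11.8 reads per library on average.

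**Figure D3:**
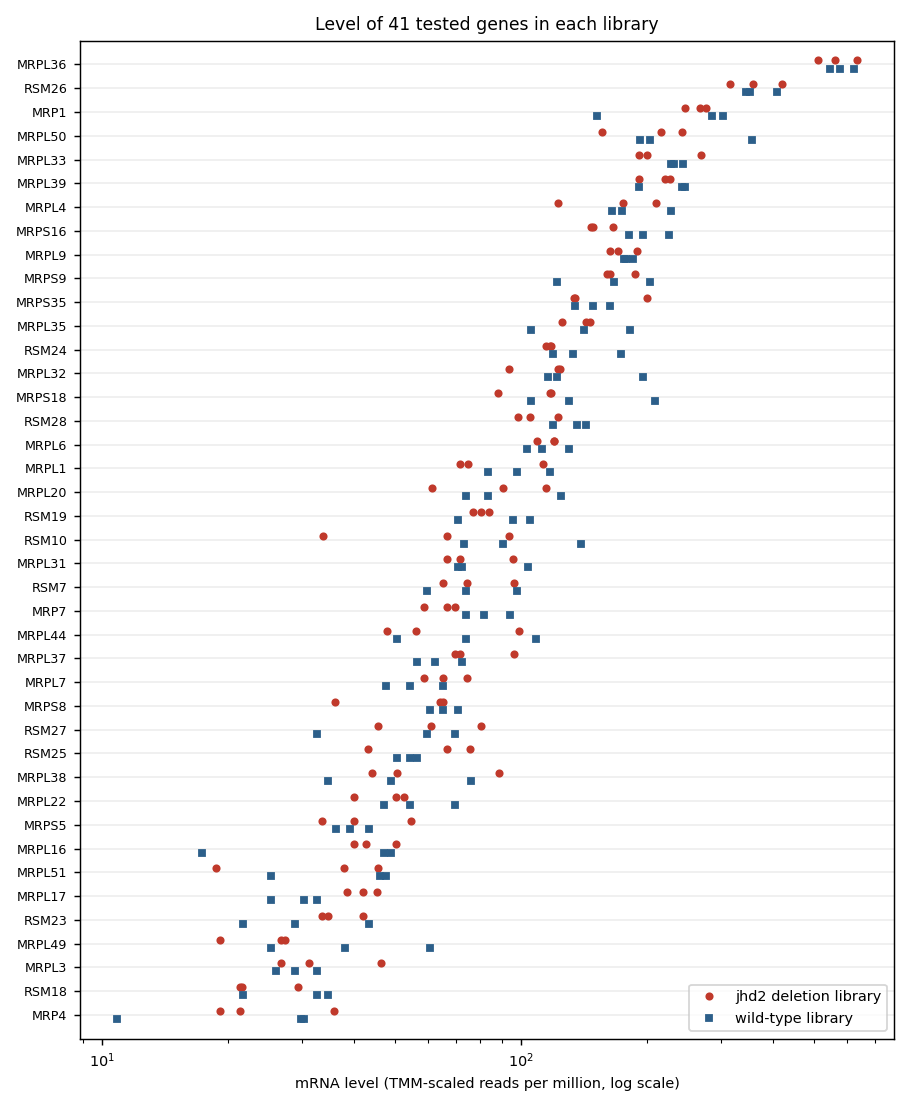
Level of each of the 41 tested genes in each library, in TMM-scaled CPM on a log axis, with deletion libraries as red circles above wild-type libraries as blue squares. MRPL36 is highest at 512 to 635 CPM over all libraries, and the groups of a gene overlap in all genes except MRPS16, RSM24, MRP7 and MRPL17.

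No mRNA of these genes passed the threshold for a difference in level between the strains. In bulk RNA, less of an mRNA in every cell and fewer cells that hold it cannot be told apart. Of 41 tested genes 0 were called higher, where 1.07% of all tested genes were, and 0 lower, where 0.238% were (adjusted p from 0.44 to 0.997, edgeR quasi-likelihood test with Benjamini-Hochberg adjustment over all tested genes). In either direction 1.31% of all tested genes were called. At an unadjusted p under 0.05 there were 2 of the 41 genes, RSM10 and MRPS16, against 9.83% of all tested genes, and by the DESeq2 Wald test there were 0 at either threshold, against 0.713% of all tested genes at the adjusted and 4.69% at the unadjusted one. The log2 fold changes ran from -0.71 (MRPL49) to 0.49 (MRPL17) with a median of -0.04, and the median over all tested genes was -0.00026. The middle 50% of the genes lay between -0.25 and 0.11, against -0.17 and 0.19 for all tested genes. There were 25 genes below 0 and 16 above. A missed threshold does not show equal levels: approximate 95% intervals of the log2 fold change (1.96 SE on either side) reached down to -1.44 (MRPL49) and up to 1.16 (MRPL17), and for the best-measured gene, MRPL36, the interval was -0.32 to 0.25.

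Large-subunit genes had a median log2 fold change of -0.08 (16 of 23 below 0) and small-subunit genes of 0.003 (9 of 18 below 0). Genes with a TGTAAATA site had a median of -0.15 (22 genes) and those with other forms of the motif a median of -0.003 (19 genes). Of the 512 tested genes outside the list with a motif before their farthest retained cluster, 1 was called higher and 1 lower, where 1.07% and 0.238% of all tested genes were, with a median log2 fold change of 0.01. No test was made between these groups of genes.

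The lowest fold changes among genes averaging at least 20 reads per library were those of RSM10, MRPS18, MRPS16, MRP7, MRPL32 and RSM28. RSM10 (YDR041W), the relative of bacterial S10, had 93.4, 66.7 and 33.6 CPM in deletion libraries and 73.3, 139 and 90.5 CPM in wild-type libraries (log2 fold change -0.61, SE 0.28, adjusted p = 0.44, edgeR). The RSM10 groups overlapped, the lowest value being that of deletion replicate 3 and the highest that of wild-type replicate 2. MRPS16, the relative of bacterial S16, had 149, 147 and 166 CPM in deletion libraries and 195, 226 and 181 CPM in wild-type libraries (-0.37, SE 0.18, adjusted p = 0.49, edgeR), and all 3 deletion values lay below the wild-type values. MRP7 had 69.5, 66.7 and 58.8 CPM in deletion libraries and 81.4, 73.8 and 94.1 CPM in wild-type libraries (-0.36, SE 0.24), again without overlap.

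MRPS18, a relative of bacterial S11, had 117, 88.1 and 118 CPM in deletion libraries and 106, 208 and 130 CPM in wild-type libraries (-0.39, SE 0.22). MRPL32, a relative of bacterial L32, had 122, 93.4 and 124 CPM in deletion libraries and 122, 195 and 116 CPM in wild-type libraries (-0.30, SE 0.21). In both genes replicate 2 was the highest wild-type library, and without it the log2 fold changes were -0.11 for MRPS18 and -0.08 for MRPL32. For RSM10 the value without it was -0.36, and for MRPS16 it was -0.30. RSM28 had 109 ± 12.7 CPM in deletion libraries and 133 ± 12.1 CPM in wild-type libraries (-0.29, SE 0.20). Wild-type replicate 2 had the fewest reads of all libraries in the table. Without it the log2 fold change of MRPL50 was 0.04, against -0.25 with it, and that of MRP1 was -0.18, against 0.05 with it.

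The highest fold changes in the same class were those of MRPL37 (0.29, SE 0.25), MRPL7 (0.24, SE 0.27), RSM25 (0.21, SE 0.28), RSM27 (0.20, SE 0.29), MRPL38 (0.18, SE 0.31) and MRPS35 (0.07, SE 0.20). MRPL37 had 69.5, 96.1 and 71.4 CPM in deletion libraries and 62.4, 56.4 and 72.4 CPM in wild-type libraries. MRPL7, the relative of bacterial L5, had 74.3, 58.7 and 65.1 CPM in deletion libraries and 54.3, 47.7 and 65.2 CPM in wild-type libraries. The groups overlapped in both, and of the 6 fold changes that of MRPL37 was the 1 larger than its SE.

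Groups did not overlap in 4 of the 41 genes, where this was so in 15.6% of all tested genes. Of these, MRPS16 and MRP7 are given above, and RSM24 and MRPL17 were singled out after their values were seen. RSM24 of the small subunit had 117, 115 and 118 CPM in deletion libraries and 133, 174 and 119 CPM in wild-type libraries, and MRPL17 of the large subunit had 38.3, 45.4 and 42.0 CPM in deletion libraries and 32.6, 30.4 and 25.3 CPM in wild-type libraries. Their adjusted p was 0.71 and 0.67 (edgeR).

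**Figure D4:**
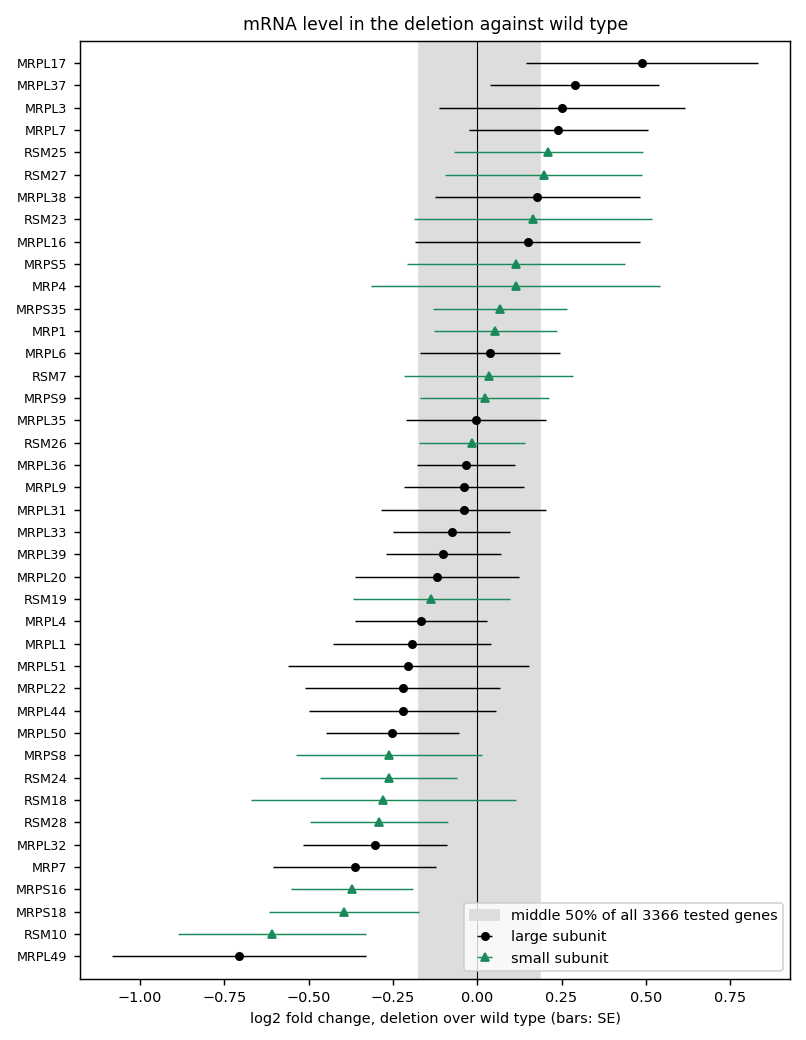
The log2 fold change of the mRNA level in the deletion over wild type for the 41 tested genes, with its SE as a bar, for large-subunit (circles) and small-subunit (triangles) genes. The grey band is the middle 50% of all 3366 tested genes, from -0.17 to 0.19, and the genes run from -0.71 (MRPL49) to 0.49 (MRPL17).

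The choice among 3′ ends was tested in the 31 genes with 2 or more clusters of 20 or more summed reads, 67 clusters in all. By the gene-level F test of edgeR, a test for unequal fold changes among the clusters of 1 gene, 0 of 31 genes were called (adjusted p from 0.67 to 0.993), where 0.21% of all 2380 tested genes were called. At an unadjusted p under 0.05 there were 5 of the 31 genes, MRPL20, MRPS16, MRP1, MRPL35 and RSM10, against 5.67% of all tested genes. With limma-voom 0 of the 31 genes were called, against 0.084% of all tested genes, and 3 were at an unadjusted p under 0.05, against 5.46%. A missed threshold does not show that the use of ends was equal. Of the 67 single clusters 0 were called for relative use, against 0.0168% of all tested clusters, and 3 had an unadjusted p under 0.05, against 2.15%.

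The mean end of a gene, weighted by the reads at its retained clusters, differed by a few nt in either direction. It lay earlier in the deletion in 18 of the 31 genes, against 55.8% of all tested genes. The size of the shift had a median of 2.28 nt, against 3.16 nt over all tested genes, and the shifts ran from -7.54 nt (RSM10) to 14.9 nt (MRPS16). The mean ends of the groups did not overlap in 1 of the 31 genes, MRPL1, where this was so in 10.7% of all tested genes.

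MRPS16 had the largest shift. Its 4 retained clusters lay 26, 120, 159 and 187 nt past the stop codon, with the 2 Puf3 motifs at 86 to 93 nt and 127 to 134 nt between them. Shares here are of the reads at these retained clusters. The cluster at 26 nt, whose mRNA holds neither motif, took 10.3%, 11.3% and 24.7% of them in the deletion libraries and 24.2%, 25.5% and 28.3% in the wild-type libraries. That at 187 nt took 34.5%, 22.6% and 14.3% in deletion libraries and 10.6%, 9.80% and 19.6% in wild-type libraries. Deletion replicate 3 lay within or next to the wild-type range at both clusters. The mean end was at 151, 145 and 124 nt in deletion libraries and at 127, 126 and 123 nt in wild-type libraries. The mean end itself was not tested, and the gene-level F test gave MRPS16 an unadjusted p = 0.021 and an adjusted p = 0.71 (edgeR).

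In MRPL20 (YKR085C), a large-subunit protein, 11, 3 and 4 reads of the deletion libraries ended at 68 nt, against 1, 2 and 0 reads of the wild-type libraries. At 94 nt there were 37, 20 and 39 reads in the deletion libraries and 45, 15 and 23 reads in the wild-type libraries. The nearer cluster thus took 15.1% ± 7.03 of reads in deletion libraries and 4.65% ± 6.26 in wild-type libraries, with overlap at 9.30% and 11.8%. The gene-level F test gave MRPL20 an adjusted p = 0.67 (edgeR). Both clusters lie past the Puf3 motif of MRPL20, which ends at 34 nt. In MRPL35 (YDR322W), also of the large subunit, the cluster at 61 nt took 19.7%, 31.9% and 29.4% in deletion libraries and 23.1%, 9.52% and 15.4% in wild-type libraries, and the rest ended at 107 nt, both past the motif at 29 to 36 nt.

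The mean end of MRP1 lay 3.35 nt farther from the stop codon in deletion libraries. Its nearer cluster at 85 nt falls inside the second motif (83 to 90 nt) and took 6.09%, 10.9% and 3.15% in deletion libraries and 7.14%, 34.3% and 10.1% in wild-type libraries. The wild-type mean of 17.2% rests on replicate 2, where 12 of 35 reads ended there, and without that library the MRP1 shift was 0.62 nt. The farther cluster of RSM10, at 211 nt, lies inside the converging gene YDR042C. It took 0, 12.0% and 18.8% of reads at retained clusters in deletion libraries and 38.5%, 25.0% and 4.35% in wild-type libraries. The count of 0 of 38 such reads was in deletion replicate 1, and the groups overlapped.

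MRPL1, the relative of bacterial L1, had a cluster with its position at 84 nt, just before its second motif (87 to 94 nt). This cluster took 12.8%, 21.4% and 11.8% of reads in deletion libraries and 8.33%, 7.41% and 0% of reads in wild-type libraries. A cluster joins ends within 24 bp, so which of these reads end before the motif cannot be told. The MRPL1 groups did not overlap, on counts of 6, 6 and 4 reads in deletion libraries and 3, 2 and 0 reads in wild-type libraries. The gene-level F test gave MRPL1 an adjusted p = 0.88 (edgeR). Both MRPL1 clusters lie past its first motif at 38 to 45 nt. Shares at a single cluster failed to overlap for the 2 MRPL1 clusters out of 67, where this was so for 10.1% of all tested clusters.

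**Figure D5:**
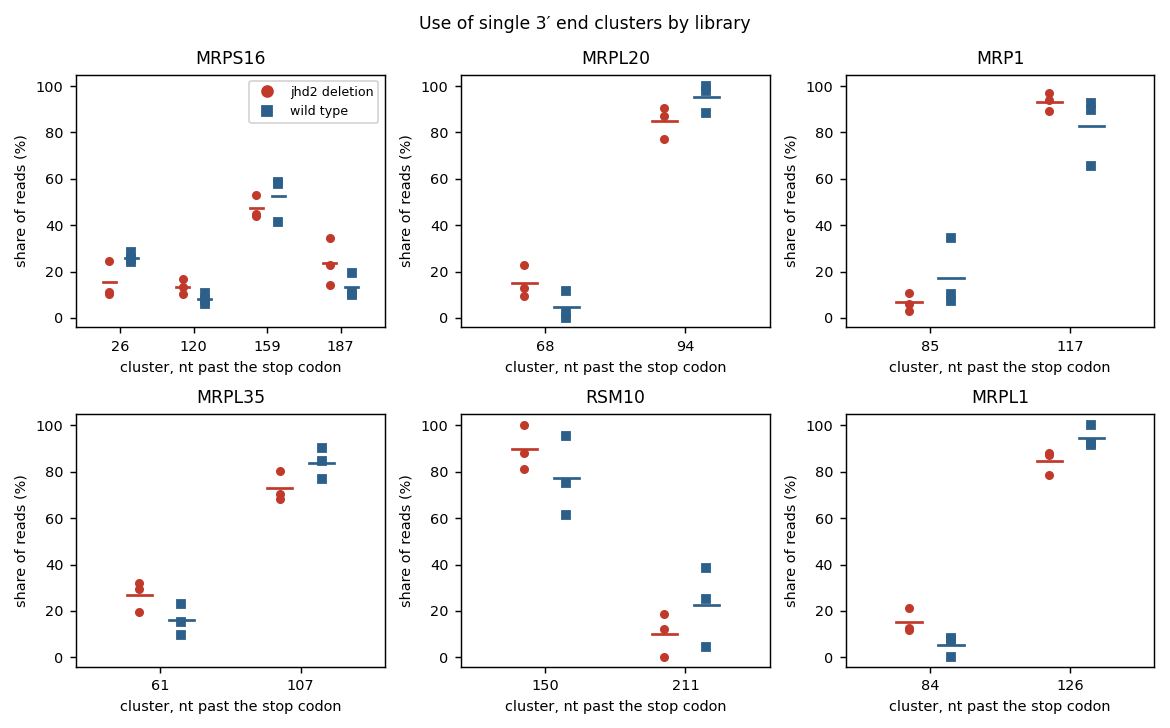
Share of the reads at retained clusters (percent, vertical axis) for each cluster of 6 genes, named by its distance past the stop codon, with deletion libraries as red circles left of wild-type libraries as blue squares and the mean as a line. The genes are the 5 with an unadjusted p under 0.05 for the choice among ends, and MRPL1. The libraries of the groups overlap at every cluster shown except the 2 of MRPL1.

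Retained clusters, those with 20 or more summed reads, lay on both sides of a Puf3 motif in 5 genes averaging at least 20 reads per library, MRPL1 and MRPS16 above and MRPL6, MRPL33 and RSM26. In MRPL6, the relative of bacterial L6, clusters at 53 nt and 108 nt flank the motif at 86 to 93 nt. Of all MRPL6 reads, 76.7% ± 9.62 ended past the motif in deletion libraries and 83.1% ± 8.02 in wild-type libraries. In MRPL33 the second motif at 165 to 172 nt was passed by 27.5%, 25.3% and 21.1% of reads in deletion libraries and by 22.6%, 23.2% and 20.3% in wild-type libraries. RSM26 ended at 19 nt, before its only motif, with 5, 0 and 6 reads in deletion libraries and 8, 5 and 3 reads in wild-type libraries, out of 81 to 200 reads per library. The shares past the RSM26 motif were 97.9% ± 1.84 in deletion libraries and 95.1% ± 1.56 in wild-type libraries. In each of these 3 genes the groups overlapped.

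For the remaining genes named for their shift, the mean ends of the groups overlapped. MRPL39 had its mean end at 222 nt ± 7.56 in deletion libraries and 216 nt ± 8.54 in wild-type libraries, and RSM19 had it at 125 nt ± 2.14 in deletion libraries and 123 nt ± 3.68 in wild-type libraries. RSM26 had it at 124 nt ± 1.97 in deletion libraries and 121 nt ± 1.67 in wild-type libraries. MRPL7 had it at 137 nt ± 4.11 in deletion libraries and 143 nt ± 5.53 in wild-type libraries, and RSM27, of the small subunit, had it at 104 nt ± 2.79 in deletion libraries and 107 nt ± 3.95 in wild-type libraries. MRP7 had it at -88.5 nt ± 22.1 in deletion libraries and -93.1 nt ± 20.5 in wild-type libraries, where a negative position lies before the stop codon. The 2 retained MRP7 clusters lay 58 nt after and 415 nt before the stop codon. Of the reads at these 2, the one in the gene body took 31.0% ± 4.67 in deletion libraries and 31.9% ± 4.34 in wild-type libraries.

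No other gene of mitochondrial translation that was listed passed the threshold. Of 38 tested genes in 6 further lists (66 listed), 0 were called higher and 0 lower (edgeR), where 1.31% of all tested genes were called, and 2 had an unadjusted p under 0.05, against 9.83% of all tested genes. Of 20 tested for the choice among ends 0 were called, against 0.21% of all tested genes. The second list of mitochondrial ribosome genes had a median log2 fold change of 0.13 over 15 genes, with 4 below 0. In it NAM9, the relative of bacterial S4, had 47.9, 32.0 and 33.6 CPM in deletion libraries and 24.4, 17.4 and 18.1 CPM in wild-type libraries (0.87, SE 0.39, adjusted p = 0.42, edgeR). The NAM9 groups did not overlap, as was so in 15.6% of all tested genes. These levels are low against the median of 107 CPM over all tested genes, so they rest on few reads. MRP49 of the large subunit had 154 ± 15.3 CPM in deletion libraries and 193 ± 48.1 CPM in wild-type libraries (-0.31, SE 0.19).

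The tRNA synthetase genes had a median of -0.14 over 5 genes, the ribosome assembly genes of -0.05 over 4 and the translational activators of -0.09 over 9. In these lists the lowest p belonged to the synthetase genes MSW1 (-0.42, SE 0.25) and MSK1 (-0.41, SE 0.31), the ribosomal RNA methyltransferase gene MRM1 (-0.38, SE 0.27) and the GTPase gene MTG2 (0.46, SE 0.41), and the activator genes AEP2 (-0.33, SE 0.23) and PET111 (-0.46, SE 0.34). The only tested translation factor was MEF2 (0.52, SE 0.27). PUF3 itself had 127, 115 and 149 CPM in deletion libraries and 103, 130 and 141 CPM in wild-type libraries (0.09, SE 0.21), with overlap. HAP4, the regulated subunit of the HAP activator of respiratory genes, had 379, 302 and 357 CPM in deletion libraries and 318, 143 and 279 CPM in wild-type libraries (0.45, SE 0.18, adjusted p = 0.34, edgeR). Without wild-type replicate 2 the HAP4 value was 0.20. HAP2 stood at 0.44 (SE 0.23).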

How the data were processed

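The deposited table holds raw read counts per pA cluster and library, with no normalization. Per the series description, the authors took single-end reads of more than 15 bp, removed 4 bp and aligned them to sacCer3 by Bowtie2, for which no version is stated. They required a mapping quality of at least 10 and at least 2 unaligned T bases, joined ends within 24 bp into clusters, gave clusters to genes extended by up to 1000 bp, and dropped those under 3 reads or 5% of their gene. By the reads in the table, 17 of the 134 clusters described here hold under 5% of their gene, and the sums to which the rule was applied are not stated. The table lists genes with 2 or more clusters. Gene identifiers were matched to RefSeq R64, the same assembly.

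Levels were tested with edgeR 4.0.16 in R 4.3.3 (quasi-likelihood F test on group alone, after TMM scaling and filterByExpr, Benjamini-Hochberg adjustment over all genes, threshold 0.05), and as an alternative with DESeq2 1.42.0. Choice among ends was tested with diffSpliceDGE on clusters with 20 or more summed reads, and as an alternative with limma 3.58.1. Each SE is the absolute log2 fold change divided by the square root of F. Uniqueness was checked with BLAST 2.17.0 over the 200 nt before the most-read cluster, counting stretches of 100 nt at 95% identity. Separately from the results given here, the same tests were also run on simulated data. They did not recover every change placed there, and recovered fewer for choice among ends than for level. The members and gene lists were chosen with earlier results of these data known.

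Genes named are those past a threshold, the 6 highest and 6 lowest fold changes and the 6 latest and 6 earliest shifts with a mean of 20 or more reads, the 5 highest and 3 lowest levels, those with a motif between retained clusters, and the 2 lowest p of each further list; others are named as extremes or small counts after their values were seen.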

Additional observations from a re-analysis of the deposited data

How the results depend on the processing

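Under each alternative tried (DESeq2 size factors or Wald test, no low-count filter, clusters past the stop codon only, limma-voom, the Simes test at gene level, a cluster minimum of 10, the 2 most-read clusters, and leaving out each library in turn) the number of mitochondrial ribosomal protein genes called for level, for choice among ends and of clusters called stayed at 0. Deletion and wild-type libraries share the numbers 1 to 3, but same-numbered libraries did not deviate together (correlations -0.094, -0.028 and -0.011 across 3366 genes); with the replicate block 0 genes or clusters were called and the median log2 fold change was -0.046, while over all tested genes it gave 33 calls for level, against 44 without it, and 2 for choice among ends, against 5. That median ran from -0.13 to 0.012 when 1 library was left out, turning positive without deletion replicate 2. With TGTAAATA in place of TGTANATA, 25 genes held a motif before the farthest retained cluster in place of 46 of 48, a stricter pattern by construction.

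No named gene was called under any alternative, but single directions turned when 1 library was left out. They were not all near 0. With all libraries the log2 fold change was 0.25 for MRPL3 and -0.25 for MRPL50, yet these directions turned when 1 library was left out. Over the 6 such fits the log2 fold change ran from -0.045 to 0.37 for RSM27, from -0.19 to 0.49 for MRPL38, from -0.17 to 0.17 for MRPS35, from -0.12 to 0.025 for MRPL36, from -0.14 to 0.066 for RSM26, from -0.18 to 0.23 for MRP1, from -0.40 to 0.039 for MRPL50, from -0.26 to 0.018 for MRPL33, from -0.24 to 0.38 for MRP4 and from -0.034 to 0.38 for MRPL3. The shift of the mean end ran from -7.0 to 17.3 nt for MRP7 and from -6.43 to 2.52 nt for MRPL6. It was -8.0 nt for MRP7 with a cluster minimum of 10 and 0.81 nt for MRPL6 with the 2 most-read clusters, and the cause was not tested. At 1235 to 2499 reads on 49 genes per library, depth limits single genes to the intervals given.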
